A study of Mus musculus with 6 samples.

Results

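The Hox cluster genes are the mouse genes named Hoxa, Hoxb, Hoxc or Hoxd followed by a number. They were picked from the deposited expression table by symbol, which gave 23 genes of the 15280 listed. The authors had dropped genes under a minimum fragment number, so every listed gene had passed a filter on its measured level. The mm9 annotation (GENCODE vM1) holds 39 genes with Hox cluster names, and the other 16 were not analysed here. RNA-Seq libraries came from 3 parous female BK5.ATF3 mice. Each gave 1 mammary tumor (T11035, T11640 and T9232) and 1 adjacent normal mammary gland (M11035, M11640 and M9232). In this transgenic strain a bovine keratin 5 promoter drives ATF3, a stress-induced transcription factor, in basal epithelial cells. The transgene was present in all 6 samples, so tumors were compared with transgenic glands and not with wild-type tissue. Each female had raised 1 litter, the tumors arose at an age of 6 to 12 months, and tissue was taken once a tumor measured 1.5 cm. With 1 tumor and 1 gland per mouse, n = 3 for each tissue.

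Hox proteins are transcription factors that give cells their position along the body axis, and many adult tissues keep the Hox pattern of the place where they formed. The genes lie in 4 clusters that arose by duplication, so genes with the same number in different clusters (paralogs) encode similar proteins. Low numbers mark anterior and high numbers posterior positions. Hox proteins bind DNA together with cofactors of the TALE family (Pbx, Meis and Pknox). Polycomb complexes keep silent Hox genes off, Trithorax/MLL complexes keep active ones on, and retinoic acid is a classical inducer of the family. In the mammary gland, Hoxa9, Hoxb9 and Hoxd9 are together required for the growth of the gland in pregnancy, and Hoxc13 is best known from the hair follicle.

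In the tumors, 8 of the 23 Hox genes were downregulated (Hoxa5, Hoxa7, Hoxa9, Hoxa10, Hoxb5, Hoxc8, Hoxc9 and Hoxc10) and 3 were upregulated (Hoxc13, Hoxd10 and Hoxd13). A gene was called at an adjusted p of at most 0.05 in limma's test over all genes and at least a 2-fold change on the scale of log2(CPM + 0.5), where CPM is the deposited level, fragments scaled to the effective library size. By this rule 13.7% of all genes were downregulated and 14.5% were upregulated, so the upward count of Hox genes was near the background and the downward count (34.8%) was above it. The downward count depended on the test and on single libraries. It was 5 in edgeR and 5 in DESeq2, where 14.6% and 14.4% of all genes fell. It was 4 without M11640 or T11640, where 12.7% and 11.9% of all genes fell, and 5 without T9232 (12.6%). The upward count was 1 without M11035 or T11640. Of the upregulated genes, Hoxc13 and Hoxd13 had too few gland fragments to pass the authors' fragment minimum without the tumors. They could therefore be listed only with a rise. The Hoxa, Hoxb and Hoxc clusters held every downregulated member, while 2 of the 3 upregulated members belonged to Hoxd. Paralogs could differ in direction: Hoxa10 and Hoxc10 fell and Hoxd10 rose. These calls were not firm: Hoxa10 and Hoxc10 lost theirs in edgeR and DESeq2, and Hoxd10 when some single libraries were left out. Against the gland of the same mouse, the log2 ratio of Hoxd10 was -0.015 in T9232. In T11035 the ratios of Hoxa10 and Hoxc10 were -0.28 and -0.48.

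The homeoboxes of paralogs 8 and 10, where Hoxd genes parted from Hoxc genes, and of paralog 13, where both members rose, are printed to show how far paralogs differ in sequence. The homeobox is the 180 bp that encode the DNA-binding homeodomain. Each was read 5′ to 3′ on the coding strand of mm9, in lower case, with capitals at the bases that differ from the Hoxc gene of the same number. The homeobox of Hoxc8 lies at chr15:102823002-102823181 (+), that of Hoxd8 at chr2:74544582-74544761 (+), and 48 of the 180 bases differ (73.3% identity).
Hoxc8: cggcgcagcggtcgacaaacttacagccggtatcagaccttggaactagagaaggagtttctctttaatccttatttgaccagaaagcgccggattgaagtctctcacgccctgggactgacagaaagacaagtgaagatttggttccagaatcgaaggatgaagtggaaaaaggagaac
Hoxd8: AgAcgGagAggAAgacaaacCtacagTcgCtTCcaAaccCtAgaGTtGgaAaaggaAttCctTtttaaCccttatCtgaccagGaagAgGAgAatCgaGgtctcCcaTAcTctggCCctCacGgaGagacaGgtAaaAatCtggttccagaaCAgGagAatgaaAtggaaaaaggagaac

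Paralog 10 has 3 analysed members, and their homeoboxes are those of Hoxc10 (chr15:102801279-102801458, +), Hoxd10 (chr2:74532198-74532377, +) and Hoxa10 (chr6:52182553-52182732, -). Hoxd10 differed from Hoxc10 at 31 bases (82.8% identity) and Hoxa10 at 35 (80.6% identity).
Hoxc10: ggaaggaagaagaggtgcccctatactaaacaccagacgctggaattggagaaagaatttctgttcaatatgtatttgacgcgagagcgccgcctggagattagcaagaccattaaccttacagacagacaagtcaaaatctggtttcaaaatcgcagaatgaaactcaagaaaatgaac
Hoxd10: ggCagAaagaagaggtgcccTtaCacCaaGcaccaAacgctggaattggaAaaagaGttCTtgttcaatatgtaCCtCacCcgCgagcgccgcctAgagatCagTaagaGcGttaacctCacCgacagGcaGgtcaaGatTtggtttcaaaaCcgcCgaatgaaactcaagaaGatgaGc
Hoxa10: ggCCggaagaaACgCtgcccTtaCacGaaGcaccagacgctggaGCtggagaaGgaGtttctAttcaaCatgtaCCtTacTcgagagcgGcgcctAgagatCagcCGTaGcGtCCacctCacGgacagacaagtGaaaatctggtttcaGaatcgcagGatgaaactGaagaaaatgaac

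For paralog 13, the homeobox of Hoxc13 lies at chr15:102757641-102757820 (+) and that of Hoxd13 at chr2:74507987-74508166 (+). They differed at 45 bases (75.0% identity).
Hoxc13: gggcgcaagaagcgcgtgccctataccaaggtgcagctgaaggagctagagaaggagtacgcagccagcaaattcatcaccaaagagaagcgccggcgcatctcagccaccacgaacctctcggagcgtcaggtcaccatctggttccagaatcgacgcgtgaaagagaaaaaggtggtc
Hoxd13: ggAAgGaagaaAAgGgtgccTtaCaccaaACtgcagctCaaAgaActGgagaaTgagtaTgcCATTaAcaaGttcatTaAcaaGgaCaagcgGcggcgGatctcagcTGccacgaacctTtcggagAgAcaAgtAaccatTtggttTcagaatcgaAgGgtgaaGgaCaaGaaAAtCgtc
Between annotated coding transcripts of members of different clusters, the longest identical stretch was 47 bp (Hoxa7 and Hoxb4). The 4 clusters themselves lie on chromosome 6 (Hoxa, 52105366 to 52210874), chromosome 11 (Hoxb, 96055630 to 96229570), chromosome 15 (Hoxc, 102751534 to 102867274) and chromosome 2 (Hoxd, 74506367 to 74603200) of mm9.

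In the normal glands, Hoxc8 and Hoxc10 stood above all other members. Per kilobase of exon, Hoxc8, which patterns the thoracic skeleton, was at 16.6 ± 5.54 CPM per kb (SD, n = 3), and Hoxc10, which acts in the lumbar region and hindlimb, was at 10.2 ± 2.24. The next were Hoxb3 (2.75 ± 0.581 CPM per kb), Hoxa5 (2.46 ± 0.718), Hoxd9 (2.22 ± 0.546) and Hoxd8 (2.21 ± 0.654), and these 4 differed by less than their SDs. This depended on the length used. By the longest transcript in place of all exons, Hoxb3 was at 4.25, and Hoxa5, Hoxd9 and Hoxd8 were at 2.46, 2.22 and 2.31 CPM per kb. At the lower end per kilobase of exon, Hoxa3 was at 0.281, Hoxd13 at 0.0367 and Hoxc13 at 0 CPM per kb. By the longest transcript, Hoxa3 was at 0.621, above Hoxa9 (0.492) and Hoxd10 (0.332). Hoxc8 and Hoxc10 together made up 42.2%, 48.3% and 44.0% of the summed Hox CPM in glands M11035, M11640 and M9232.

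In the tumors the order changed. Hoxc8 was still first at 4.31 ± 2.54 CPM per kb, but Hoxd8 was second at 4.08 ± 0.470, a difference smaller than the SD of Hoxc8. Hoxd9 (2.36 ± 0.587), Hoxd10 (2.12 ± 1.41) and Hoxc10 (1.93 ± 3.23) followed within their SDs. Hoxd10 was the 20th of 23 members by level per kilobase of exon in glands and the 4th in tumors, and Hoxd13 moved from the 22nd place to the 7th. By the longest transcript the places in tumors shifted. Hoxb3 was at 2.55 CPM per kb there, above Hoxd9 and Hoxd10, and Hoxc6 was at 1.51, above Hoxd13 at 1.03. The share of Hoxc8 and Hoxc10 in the Hox sum was 27.3%, 21.3% and 7.18% in tumors T11035, T11640 and T9232.

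**Figure D1:**
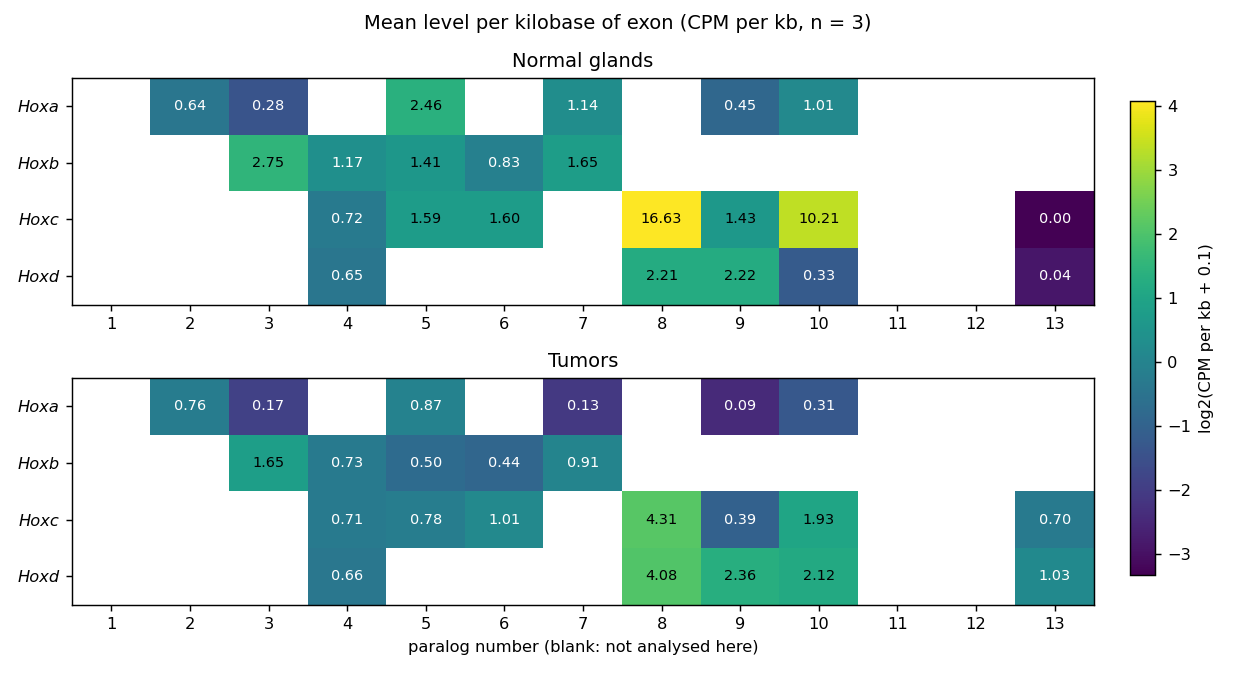
Mean level per kilobase of exon in 3 glands (upper grid) and 3 tumors (lower grid), with clusters in rows and paralog numbers in columns; colour is log2(CPM per kb + 0.1) and blank cells were not analysed here. Hoxc8 (16.6) and Hoxc10 (10.2) dominate the glands, whereas Hoxc8 (4.31) and Hoxd8 (4.08) are about level in the tumors.

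The fall of the Hoxc cluster was led by its most abundant genes. Hoxc8 was at 32.3, 52.9 and 29.5 CPM in glands M11035, M11640 and M9232 and at 9.68, 15.9 and 4.20 CPM in the tumors of the same mice. Every tumor was below every gland, and the mean was 3.86-fold lower (log2 fold change -2.02, SE 0.43, adjusted p = 0.00591). Hoxc10 was at 15.2, 23.8 and 19.4 CPM in glands and at 10.8, 0.262 and 0 CPM in tumors. The tumors of this gene were far apart: T11035 kept 58 fragments, whereas T11640 had 2 and T9232 had 0. The mean was 5.29-fold lower (log2 fold change -3.60, SE 0.99, adjusted p = 0.0194), and the call was lost in edgeR (adjusted p = 0.0958) and in DESeq2 (0.325). It was also lost without M11640 (0.0565), T11640 (0.0819) or T9232 (0.0745).

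Hoxc9, which lies between them, was at 3.25, 3.47 and 3.69 CPM in glands and at 1.67, 0.262 and 0.899 CPM in tumors. The glands were tight and all above the tumors, with a 3.67-fold lower mean (log2 fold change -1.58, SE 0.41, adjusted p = 0.0144). The anterior neighbors Hoxc5 and Hoxc6 were also below the glands in every tumor but were not called. Hoxc5 averaged 4.66 ± 1.40 CPM in glands and 2.28 ± 0.775 in tumors (adjusted p = 0.0537), and Hoxc6 3.99 ± 0.498 and 2.52 ± 0.596 (adjusted p = 0.125). Hoxc4, at the anterior end of the cluster, had means of 1.84 and 1.83 CPM.

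In the Hoxa cluster, 4 of 6 members fell in limma, and 2 (Hoxa5 and Hoxa7) also in edgeR and DESeq2. Of all genes, 13.7% fell in limma, 14.6% in edgeR and 14.4% in DESeq2. The number that rose was 0 in all of these tools and at an unadjusted p under 0.05 in limma. By the rule for calls, 14.5% of all genes rose in limma, so 0 of 6 says little. Hoxa7, a patterning gene of the thoracic region, was at 3.86, 3.80 and 2.19 CPM in glands and at 0.558, 0 and 0.599 CPM in tumors. No tumor held more than 4 fragments of it, and its mean was 8.51-fold lower (log2 fold change -2.15, SE 0.42, adjusted p = 0.00398). Hoxa5, which is needed for lung development, was at 3.25, 5.95 and 4.65 CPM in glands and at 1.67, 1.70 and 1.50 CPM in tumors. Its tumors lay close together below all glands (2.84-fold lower, log2 fold change -1.23, SE 0.30, adjusted p = 0.0104).

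Hoxa9, known from blood stem cells and, with its paralogs, from the mammary gland, was at 2.24, 1.16 and 1.37 CPM in glands and at 0.744, 0 and 0.150 CPM in tumors. The groups did not overlap, but the tumors rested on 4, 0 and 1 fragments (log2 fold change -1.46, SE 0.45, adjusted p = 0.0302). Hoxa10, which is required in the uterus, was at 3.05, 5.62 and 3.01 CPM in glands and at 2.42, 0.131 and 1.05 CPM in tumors. All tumors were below all glands, T11035 only slightly, and the mean was 3.24-fold lower (log2 fold change -1.58, SE 0.55, adjusted p = 0.0466). With the mouse as a term, Hoxa10 was no longer called (adjusted p = 0.0665). The calls of Hoxa9 and Hoxa10 were both lost in edgeR (0.0589 and 0.0803) and when any gland, T11640 or T9232 was left out (adjusted p of 0.0506 to 0.140).

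The Hoxa genes not called were the anterior pair. Hoxa3, a gene of the pharyngeal pouches, had means of 1.92 and 1.16 CPM (adjusted p = 0.225). Hoxa2, which patterns the second pharyngeal arch, had means of 1.55 and 1.85 CPM and overlapped between tissues (adjusted p = 0.749). Mira, a noncoding transcript that RefSeq places between the Hoxa genes, is no member by symbol and is named because it is the one other row of the table placed there. It was at 6.51, 4.62 and 3.97 CPM in glands and at 0.930, 0.917 and 1.35 CPM in tumors. It was thus 4.72-fold lower in tumors, with no overlap (log2 fold change -1.81, SE 0.30, adjusted p = 0.00176).

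In the Hoxb cluster, all 5 members had a lower mean in tumors, and 1 of them was called downregulated (20%, against 13.7% of all genes). Hoxb5, a gene of the enteric nervous system and the lung, was at 4.68, 3.96 and 3.28 CPM in glands and at 1.30, 0.524 and 2.40 CPM in tumors. The tissues did not overlap (2.82-fold lower, log2 fold change -1.34, SE 0.41, adjusted p = 0.0278), and the call was lost without M11035 (0.0751), M11640 (0.0675), T11035 (0.0632) or T11640 (0.0863). Hoxb3, the most abundant member of this cluster per kilobase, was at 6.91, 10.2 and 7.66 CPM in glands and at 4.84, 5.24 and 4.80 CPM in tumors. All tumors were below all glands, but the change was under the limit of 2-fold (log2 fold change -0.67, SE 0.23, adjusted p = 0.0493).

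Hoxb7 was at 3.66, 9.25 and 7.25 CPM in glands and at 2.98, 3.28 and 4.94 CPM in tumors. It was lower in the tumor of each mouse, but gland M11035 fell among the tumors (log2 fold change -0.71, SE 0.36, adjusted p = 0.147); without that gland it was called (log2 fold change -1.07, adjusted p = 0.0273). Hoxb4, which expands blood stem cells, had means of 4.87 ± 1.68 and 3.03 ± 0.621 CPM (adjusted p = 0.183), and Hoxb6 of 1.72 ± 0.578 and 0.920 ± 0.981 CPM (adjusted p = 0.224). Hoxb6 was called without T11035 (log2 fold change -1.35, adjusted p = 0.0337).

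The Hoxd cluster moved the other way at its posterior end. Hoxd13, a gene of the digits and the genital tubercle, was at 0, 0 and 0.274 CPM in glands and at 1.86, 4.19 and 1.65 CPM in tumors. Only 2 fragments were counted in the glands together and 53 in the tumors, a ratio of 24.6 with a 95% exact counting interval of 6.49 to 209 (log2 fold change 2.31, SE 0.43, adjusted p = 0.00308). Hoxd10, which acts in hindlimb motor neurons, was at 0.610, 0.661 and 1.37 CPM in glands and at 7.26, 8.26 and 1.35 CPM in tumors. T11035 and T11640 stood above all glands, whereas T9232 was level with its own gland. Its mean was 6.39-fold higher (log2 fold change 1.90, SE 0.58, adjusted p = 0.0298), and the call was lost without M11035 (0.0716), M11640 (0.0772), T11035 (0.103) or T11640 (0.119).

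Hoxd8 was at 5.49, 8.09 and 4.65 CPM in glands and at 9.86, 11.3 and 12.4 CPM in tumors. Every tumor was above every gland, by 1.84-fold in the mean, which passed the p threshold but not the limit of 2-fold (log2 fold change 0.86, SE 0.25, adjusted p = 0.0255). It was called without M11640 (log2 fold change 1.07, adjusted p = 0.0114). Hoxd9, named above for its part in the mammary gland, was at 4.88, 3.63 and 6.02 CPM in glands and at 4.84, 6.55 and 4.05 CPM in tumors. Its tissues overlapped (log2 fold change 0.08, SE 0.28, adjusted p = 0.848), as did those of Hoxd4, with means of 1.65 ± 0.761 and 1.68 ± 1.15 CPM (adjusted p = 0.957).

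Hoxc13, a regulator of hair keratins, was the only Hoxc member that rose. It had no fragment in any gland and was at 0.186, 3.67 and 1.35 CPM in the tumors, from 1, 28 and 9 fragments. Against 3 fragments per gland, its tumor mean was at least 3.43-fold higher (log2 fold change 1.80, SE 0.63, adjusted p = 0.0476). T11035 was near 0 and T11640 highest. The call was lost with the mouse as a term (adjusted p = 0.0505), without any of the 3 glands (0.0794 to 0.0988), and without T11640 (0.143) or T9232 (0.117).

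**Figure D2:**
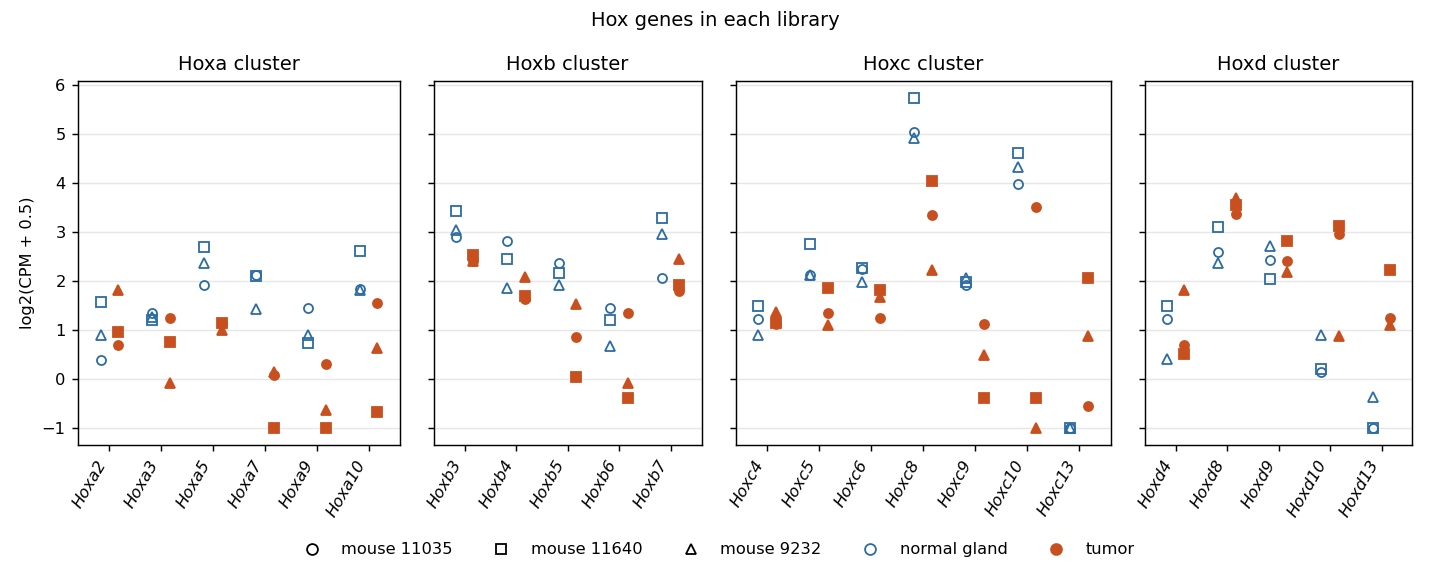
Level of the 23 Hox genes in each of the 6 libraries as log2(CPM + 0.5), by cluster, with open blue symbols for glands, filled orange symbols for tumors and 1 symbol shape per mouse. Tumors lie below glands for Hoxc8 and Hoxa7 and above them for Hoxd8 and Hoxd13, while the 3 tumors of Hoxc10 run from 0 to 10.8 CPM.

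Over all 23 members the median log2 fold change was -0.67, against -0.0028 over all genes. In 11 members all 3 tumors were below all 3 glands, and in 3 (Hoxc13, Hoxd8 and Hoxd13) all were above. This separation held for 26.3% of all genes downward and for 27.6% upward. By mouse, 14 members were lower in the tumor in all 3 pairs (60.9%, against 33.5% of all genes) and 3 were higher in all 3 pairs (34.2% of all genes were). The median of the members was -0.47 for T11035 against its gland, -0.90 for T11640 and -0.52 for T9232.

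**Figure D3:**
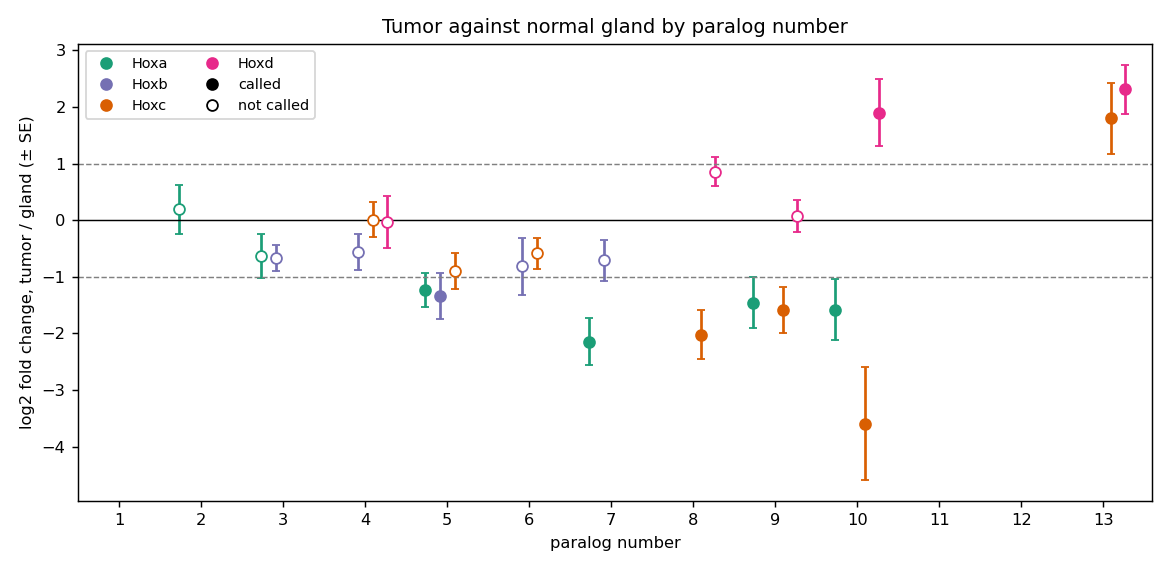
log2 fold change of tumor over gland with its SE (bars) for each member against paralog number, coloured by cluster; filled points were called and dashed lines mark the limit of 2-fold. Hoxa and Hoxc members from number 5 to 10 lie below 0 and Hoxd members from number 8 to 13 at or above it.

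The paralog groups split in 3 ways. In groups 5, 6 and 7 every analysed member had a lower mean in tumors, and Hoxa5, Hoxb5 and Hoxa7 were called. In groups 8, 9 and 10 the Hoxd gene parted from its paralogs: Hoxa9, Hoxa10, Hoxc8, Hoxc9 and Hoxc10 fell, whereas Hoxd10 rose and Hoxd8 and Hoxd9 had log2 fold changes of 0.86 and 0.08. Of these, the calls of Hoxa9, Hoxa10, Hoxc10 and Hoxd10 were not kept in every alternative. In group 13 both members rose from at most 2 fragments in a gland. So few gland fragments would not pass the authors' minimum, so both were listed only through the tumors and could show no fall. Groups 2, 3 and 4 held 6 members and 0 calls in limma, edgeR and DESeq2. In limma, 1 member (Hoxb3) passed the adjusted p threshold but not the limit of 2-fold.

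Within a library the ratio of 2 paralogs does not depend on the scaling. Per kilobase, Hoxd8 was at 0.142, 0.128 and 0.132 of Hoxc8 in the glands and at 0.854, 0.595 and 2.48 of Hoxc8 in the tumors. The glands were nearly alike, every tumor was above them, and only T9232 had more Hoxd8 than Hoxc8. The ratio of Hoxd9 to Hoxc9 was 1.67, 1.17 and 1.81 in glands and 3.22, 27.8 and 5.01 in tumors, where the value of T11640 rests on 2 fragments of Hoxc9. No test was made of these ratios, which were chosen after the values were seen.

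The make-up of the Hox transcripts also differed between the tissues. All members together summed to 113, 159 and 111 CPM in glands and to 75.0, 75.6 and 58.4 CPM in tumors. Hoxc gave 53.9%, 58.6% and 55.0% of this sum in glands and 37.2%, 36.9% and 22.0% in tumors. Hoxd gave 11.4%, 9.26% and 11.8% in glands and 33.2%, 41.2% and 38.5% in tumors. In CPM the Hoxd sum was 12.8 to 14.7 in glands and 22.5 to 31.2 in tumors, whereas Hoxa went from 14.5 to 20.8 in glands to 4.46 to 8.37 in tumors. Without Hoxc8 and Hoxc10 the other 21 members summed to 62.4 to 82.1 CPM in glands and 54.2 to 59.5 in tumors. The ranges of the tissues still did not overlap, but lay closer.

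**Figure D4:**
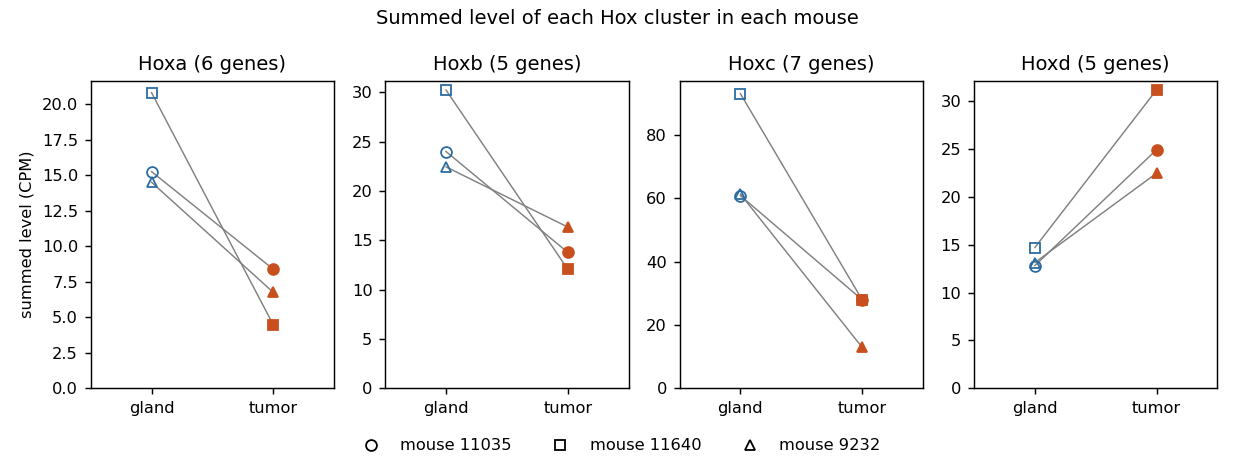
Summed CPM of the analysed members of each cluster in the gland and tumor of each mouse, joined by a line per mouse, on axes that start at 0 and differ between panels. Hoxa, Hoxb and Hoxc sums are lower in all 3 tumors, and the Hoxd sum is higher (22.5 to 31.2 against 12.8 to 14.7 CPM).

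Promoters were available in RefSeq (GRCm38.p6, 250 bases before to 50 after a gene's start) for 13 of the 23 members. Those of Hoxd13 and Hoxd10, which rose, and of Hoxa5 and Hoxa7, which fell and kept their call in every alternative, are printed 5′ to 3′ on the gene's strand with CG dinucleotides in capitals. They lie at chr2:74667975-74668274 (+, Hoxd13), chr2:74691641-74691940 (+, Hoxd10), chr6:52204538-52204837 (-, Hoxa5) and chr6:52218524-52218823 (-, Hoxa7) of GRCm38.p6.
Hoxd13: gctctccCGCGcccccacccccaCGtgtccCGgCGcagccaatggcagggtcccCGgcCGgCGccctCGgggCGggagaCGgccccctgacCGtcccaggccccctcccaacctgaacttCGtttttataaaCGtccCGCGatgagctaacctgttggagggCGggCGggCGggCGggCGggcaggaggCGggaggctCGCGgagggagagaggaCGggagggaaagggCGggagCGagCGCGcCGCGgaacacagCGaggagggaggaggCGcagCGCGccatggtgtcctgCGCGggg
Hoxd10: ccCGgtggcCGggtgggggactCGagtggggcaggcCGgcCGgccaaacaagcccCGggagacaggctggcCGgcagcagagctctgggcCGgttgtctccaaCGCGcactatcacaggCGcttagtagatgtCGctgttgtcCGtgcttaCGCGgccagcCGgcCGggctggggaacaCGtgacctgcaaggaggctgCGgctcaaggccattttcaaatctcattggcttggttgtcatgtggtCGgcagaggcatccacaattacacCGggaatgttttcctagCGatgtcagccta
Hoxa5: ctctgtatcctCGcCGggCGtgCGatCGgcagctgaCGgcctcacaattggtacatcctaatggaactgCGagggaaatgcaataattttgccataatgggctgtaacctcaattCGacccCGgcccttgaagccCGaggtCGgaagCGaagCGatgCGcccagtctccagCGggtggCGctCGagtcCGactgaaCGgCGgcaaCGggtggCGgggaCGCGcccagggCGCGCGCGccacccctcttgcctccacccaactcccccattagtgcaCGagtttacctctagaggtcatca
Hoxa7: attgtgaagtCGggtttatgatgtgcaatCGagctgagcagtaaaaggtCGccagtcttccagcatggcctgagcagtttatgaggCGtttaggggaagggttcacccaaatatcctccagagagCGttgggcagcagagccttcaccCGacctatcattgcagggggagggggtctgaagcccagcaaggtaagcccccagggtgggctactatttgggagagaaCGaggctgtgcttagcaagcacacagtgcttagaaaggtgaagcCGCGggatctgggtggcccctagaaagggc
They held 37, 22, 29 and 9 CG dinucleotides. The median was 13 over the 14 Hox promoters (Hoxa10 has 2) and 7 over all 32851. On both strands, the ATF/CREB motif TGACGTCA was in 1.79% of all promoters and the AP-1 motif TGANTCA in 7.81%, and neither was in any of the 14. The Hox-Pbx motif TGATTNAT was in 3.22% of all promoters and in 1 of the 14, that of Hoxa2.

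Facts of the whole series bear on these values. Depth ranged from 4750989 to 7806908 fragments, at which 3 fragments are 0.393 to 0.610 CPM, so members near 1 CPM rest on a few fragments. The Atf3 row was at 4.47, 8.09 and 22.6 CPM in glands and 13.4, 18.3 and 19.3 CPM in tumors, with overlap (adjusted p = 0.223). Whether fragments of the transgene count in this row is not given in the sources used here. In such bulk samples, fewer cells of a type and less RNA per cell cannot be told apart. By the rule for calls, 13.7% of all genes fell and 14.5% rose. All 8 adipocyte markers fell, from a sum of 3282 to 6446 CPM in glands to 145 to 209 in tumors. All 6 B cell markers (287 to 699 against 8.54 to 10.4 CPM) and all 6 T cell markers (166 to 421 against 25.3 to 41.1 CPM) also fell. Of the mammary and other epithelial markers 6 of 8 rose (211 to 468 against 1967 to 2566 CPM), and all 7 squamous epidermal markers rose (8.34 to 8.92 against 2153 to 3921 CPM), with Lor at 0 in the glands. Of the hair follicle markers 6 of 7 rose (6.94 to 26.4 against 108 to 178 CPM), with Krt35 and Krtap8-1 at 0 in the glands. Hormone-sensing markers fell in 4 of 6 and rose in 1, contractile markers fell in 3 of 6, endothelial in 2 of 6 and macrophage in 0 of 6 (limma, edgeR and DESeq2; 1 of them had an unadjusted p under 0.05, upward), while 2 of 7 fibroblast markers rose and 1 fell. Their sums in glands and tumors were 326 to 514 against 53.2 to 139, 353 to 744 against 194 to 239, 338 to 465 against 196 to 274, 233 to 794 against 389 to 634, and 876 to 3987 against 5509 to 6054 CPM. Skeletal muscle markers, with 1 of 6 down, summed to 3706, 1458 and 4.51 CPM in the 3 glands and to 7.34 to 15.1 in the tumors. The part of these cell types in the Hox values was not tested.

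Of the 9 TALE cofactors listed, 8 were in the table. Of these, 1 rose (12.5%) and 0 fell (also 0 in edgeR and DESeq2 and at an unadjusted p under 0.05). Their median was -0.04 on the log2 scale, and by the same rule 14.5% of all genes rose and 13.7% fell. Meis1, a partner of the Hoxa9 and Hoxa10 proteins, was at 7.52, 9.75 and 7.11 CPM in glands and at 27.4, 16.3 and 12.3 CPM in tumors. Every tumor was above every gland (2.29-fold, log2 fold change 1.08, SE 0.30, adjusted p = 0.0196).

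Among 30 Polycomb subunits, which belong to the complexes that silence Hox genes, 1 rose and 2 fell (3.33% and 6.67%, median log2 fold change 0.20). By the same rule 14.5% of all genes rose and 13.7% fell. In 12 subunits all tumors were above all glands and in 7 all were below. Of all genes, 27.6% and 26.3% were separated in these ways. Pcgf3, a subunit of a variant complex, rose from 35.1 ± 1.27 to 80.1 ± 8.12 CPM (log2 fold change 1.17, SE 0.15, adjusted p = 0.000386). Cbx7, a reader of the Polycomb mark, was at 27.7, 13.4 and 21.5 CPM in glands and at 3.16, 3.01 and 6.44 CPM in tumors. It was 4.95-fold lower with no overlap (log2 fold change -2.20, SE 0.35, adjusted p = 0.00142). Phc3, the subunit with the highest mean CPM over all 6 libraries, averaged 388 ± 9.74 CPM in glands and 235 ± 8.47 CPM in tumors, which passed the p threshold (adjusted p = 0.00157) but not the limit of 2-fold (log2 fold change -0.72). Of 14 Trithorax/MLL subunits and demethylases of the Polycomb mark, 0 were called by limma, edgeR or DESeq2. In limma, 3 lower and 2 higher genes passed the adjusted p threshold but not the limit of 2-fold. The most abundant, Mll3, averaged 560.5 ± 35.2 CPM in glands and 369 ± 28.7 in tumors (log2 fold change -0.60, adjusted p = 0.00578).

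Of 19 genes listed for retinoic acid and the caudal factors, 15 were in the table (median log2 fold change 0.90). Of the 15, 7 rose (46.7%) and 3 fell (20%), where 14.5% and 13.7% of all genes did. Crabp1, which binds retinoic acid in the cytoplasm, was at 1.02, 0.496 and 1.37 CPM in glands and at 16.9, 10.5 and 42.6 CPM in tumors (log2 fold change 3.84, SE 0.49, adjusted p = 0.000395). Aldh1a1, which makes retinoic acid, fell from 46.9 ± 9.09 to 2.63 ± 0.478 CPM (log2 fold change -3.91, SE 0.23, adjusted p = 7.23e-06). Dhrs3, a reductase that limits its synthesis and the gene of the list with the highest mean CPM over all 6 libraries, fell from 58.5 ± 8.33 to 23.3 ± 5.66 CPM (log2 fold change -1.33, SE 0.22, adjusted p = 0.00161). Named after their values were seen, the synthesis genes Aldh1a2, Aldh1a3 and Rdh10 rose by 1.77, 1.37 and 1.80 on the log2 scale, and the breakdown enzyme Cyp26b1 by 2.05. Cyp26a1, a related breakdown enzyme, had no fragment in any gland and averaged 1.84 ± 0.455 CPM in tumors, at least 3.65-fold higher against 3 fragments per gland. Cyp26a1 was listed through its tumor fragments alone, so it could only rise.

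All 17 hair genes listed as regulated by Hoxc13 were upregulated (14.5% of all genes were), with a median log2 fold change of 2.99. This list was chosen with the tumors' hair keratin values known, 4 of its genes are also hair follicle markers above, and 8 had no fragment in any gland. At least those 8 passed the authors' fragment minimum only through the tumors, so they could only rise. Padi3, an enzyme of the hair cuticle and the most abundant of them in CPM, was at 0, 0.165 and 0.137 CPM in glands and at 37.8, 42.5 and 32.1 CPM in tumors (log2 fold change 5.98, SE 0.26, adjusted p = 1.76e-06). Its 2 fragments in glands and 741 in tumors gave a ratio of 344 with a 95% exact counting interval of 95 to 2848. The 17 genes summed to 79.6, 179 and 80.9 CPM in T11035, T11640 and T9232, where Hoxc13 was at 0.186, 3.67 and 1.35 CPM. T11640 was highest in both, and T11035 and T9232 had nearly the same sum at unequal levels of Hoxc13. Padi3 alone, at 37.8 and 32.1 CPM, was a large part of these 2 sums. The median log2 ratio of the 17 genes to the gland of the same mouse was 1.85 for T11035, 4.11 for T11640 and 2.68 for T9232. A link to the level of Hoxc13 was not tested.

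**Figure D5:**
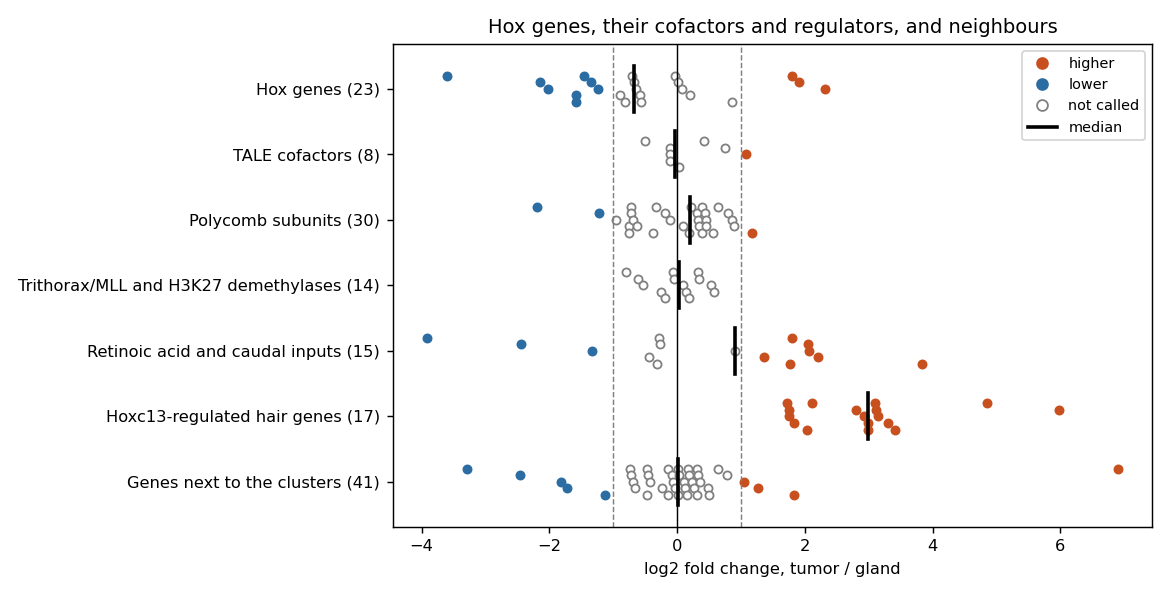
log2 fold change of tumor over gland for each gene (points) of the Hox family, of 5 lists of cofactors, regulators and hair genes, and of the genes next to the clusters, with numbers of genes in parentheses, medians as black bars and dashed lines at the limit of 2-fold. The Hox median is -0.67, that of the neighbors 0.02 and that of the hair genes 2.99.

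Genes outside the family were examined at the edges of the clusters, to set the Hox values beside those of their surroundings. The table holds 41 such genes, the 5 nearest on each side of each cluster and 1 inside Hoxd (1700109F18Rik, adjusted p = 0.711), at distances of up to 1312504 bp. Of these, 4 rose (9.76%) and 5 fell (12.2%), near the 14.5% and 13.7% of all genes, with a median log2 fold change of 0.02. Mira, which RefSeq places inside Hoxa and which fell, is not counted among them. Beside Hoxa, Nfe2l3 rose (log2 fold change 1.27, SE 0.19), and Hibadh (-1.82, SE 0.21) and Jazf1 (-1.72, SE 0.26) fell. Beside Hoxb, Igf2bp1, an RNA-binding protein of the fetus, was at 0.610, 0 and 0.137 CPM in glands and at 62.5, 89.4 and 105 CPM in tumors (log2 fold change 6.90, SE 0.34, adjusted p = 3.41e-06), and Skap1, a T cell adaptor, fell (log2 fold change -3.30, SE 0.36).

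Beside Hoxc, Calcoco1 fell (log2 fold change -1.13, SE 0.22), and Gpr84 rose from 2 fragments in the glands to 33 in the tumors, a ratio of 15.3 with a 95% exact counting interval of 3.92 to 132 (log2 fold change 1.82, SE 0.35). Beside Hoxd, Chn1 fell (log2 fold change -2.46, SE 0.33) and Nfe2l2, the oxidative stress factor, rose (log2 fold change 1.05, SE 0.16). The genes nearest to Hoxd on either side, Lnp (log2 fold change -0.48, adjusted p = 0.0503) and Mtx2 (0.01, adjusted p = 0.962), were not called.

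Several members share exon sequence with other genes of GENCODE vM1, so their fragments may not all be assigned with certainty. The authors counted on RefSeq genes, and overlaps in that annotation were not examined. Exons of Hoxd3 cover 67.4% of the exons of Hoxd4, and those of Hoxb8 cover 26.2% of Hoxb7. On the opposite strand, Hoxb3os covers 37.9% of Hoxb3 and 2700086A05Rik covers 20.4% of Hoxa7, and whether counting used the strand is not given in the sources used here. Hoxa2 and Hoxa3 share 267 bp, and Gm20398 covers 15.4% of Hoxc5 and 8.70% of Hoxc10. In Hoxa9, Hoxb4, Hoxb5 and Hoxd10, no single gene covered more than 5.67% of the exons. For Hoxa5, Hoxa10, Hoxb6, Hoxc4, Hoxc6, Hoxc8, Hoxc9, Hoxc13, Hoxd8, Hoxd9 and Hoxd13, GENCODE vM1 showed no such overlap.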

How the data were processed

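RNA-Seq data of 3 tumors and 3 matched normal glands were used, grouped by the tissue named in the labels, and 0 columns were left out. The authors aligned read pairs to mm9 with TopHat2 2.0.3, counted fragments on RefSeq genes with HTSeq 0.5.3p9 and dropped genes under a minimum fragment number. The deposited signal is CPM on the effective library size of edgeR 3.6.1. Dividing by the value of 1 fragment gave whole numbers for 100% of entries (tolerance 0.001), which recovered 4750989 to 7806908 fragments per library. Column totals differ, so the values were treated as a signal, with the test planned for CPM.

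Genes were tested with limma 3.58.1 (R 4.3.3, mean-variance trend, two-sided) on log2(CPM + 0.5), adjusted by Benjamini-Hochberg over 15280 genes with calls requiring adjusted p ≤ 0.05 together with a change of 1 or more on the log2 scale in either direction. Fold changes on this scale understate those of low genes. Recovered fragments were tested with edgeR 4.0.16 and DESeq2 1.42.0, and edgeR called 2238 genes higher and 2224 lower. Intervals and the floor of 3 fragments cover counting error only. The fits were tested on simulated data. Tumor and gland are paired by mouse; deviations of the paired libraries from their tissue means correlated with r = 0.107 (T11035), 0.151 (T11640) and 0.0168 (T9232) over 14712 genes, and the methods name no block.

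Members and lists were chosen with earlier results of these data known. Values per library are given for members that were called or had a mean of at least 5 CPM in either tissue; of each list, the largest called rise and fall and the gene with the highest mean CPM over all 6 libraries are named, and of neighbors those called. Some items that this rule would name are not reported here. Positions and exon lengths are from GENCODE vM1 (mm9), whereas the authors counted fragments on RefSeq genes. Levels per kilobase and their ranks carry any mismatch between these annotations. The 3 mice of a tissue are separate animals. Alternatives covered the pseudocount, a level filter, scaling, the replicate block, the count tests, leaving out each library, and the fold limit.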

Additional observations from a re-analysis of the deposited data

How the results depend on the processing

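Of the 11 Hox genes called, 5 (Hoxa5, Hoxa7, Hoxc8, Hoxc9 and Hoxd13) kept their call in all 15 alternatives, 6 lost it in at least 1, and none changed direction. The counts of 3 upregulated and 8 downregulated members became 2 and 7 with the replicate block (the mouse as a term in this paired design), which lost Hoxa10 and Hoxc13 and changed no other call among the members. In edgeR they were 3 and 5 and in DESeq2 3 and 5, without Hoxa9, Hoxa10 and Hoxc10. Leaving out 1 library at a time gave 1 to 2 upregulated and 4 to 8 downregulated members. The lowest counts were 1 upregulated without M11035 or T11640, and 4 downregulated without M11640 or T11640 (5 without T9232). With 2 libraries left in a tissue, fewer samples alone can raise a p-value. Calls were gained for Hoxb7 without M11035, Hoxb6 without T11035 and Hoxd8 without M11640. With no limit on the fold change, Hoxb3 and Hoxd8 were added. Of the 84 genes of the 5 lists, 12 were then downregulated instead of 5. Of the 41 genes next to the clusters, 7 rose and 9 fell instead of 4 and 5. At this setting 21.6% of all genes rose and 19.6% fell, instead of 14.5% and 13.7%. A mean of at least 1 CPM removed Hoxa9 and Hoxc13 from the test. The scalings (plain total, upper quartile) changed no call among the members and moved the median of all genes by less than 0.1. With the longest transcript in place of all exons, the median level of the members in tumors was 0.793 instead of 0.722 CPM per kb. Depth limits the members near 1 CPM, where 3 fragments are 0.393 to 0.610 CPM.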

Other observations

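Other homeobox families that act in epithelium and mesenchyme were examined beside the Hox clusters, a choice made with the values already known. Of all genes, 14.5% rose and 13.7% fell. In the table, all 3 Dlx genes rose, as did Msx2, while 2 of 5 Irx genes rose and 2 fell. Dlx3, which acts in the epidermis and the hair follicle, went from 0.256 ± 0.248 CPM in glands to 18.8 ± 2.36 CPM in tumors (n = 3, log2 fold change 4.72, SE 0.32). Dlx5 rose from 1 fragment in the glands to 70 in the tumors, a ratio of 65.0 with a 95% exact counting interval of 11.3 to 2605.

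The Irx family split within itself. Irx1 fell from 24.2 ± 6.83 to 4.90 ± 1.71 CPM (log2 fold change -2.21, SE 0.30) and Irx2 from 39.6 ± 20.2 to 13.4 ± 6.81 CPM, with overlap between the tissues. Irx3 rose from 0.966 ± 0.142 to 3.42 ± 1.08 CPM and Irx5 from 2.05 ± 0.659 to 6.97 ± 2.94 CPM. Neither Lhx gene in the table (Lhx6 and Lhx8) was called by limma.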
